A study of Homo sapiens with 6 samples.

Results

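Integrins are receptors of the cell surface made of an alpha and a beta subunit, and focal adhesions are the protein plaques that tie them to actin. The 42 genes described here are 17 integrin subunits and 25 other proteins listed with focal adhesions. They were given as a list of symbols and matched to the gene names of a count table with 58735 genes. All 42 were found, on a single row each, and 36 had enough counts to be tested among 14960 genes. RNA was sequenced from Panc-1, an epithelial line from a human pancreatic cancer. In the PAI-1 libraries (n = 3), Panc-1 had been kept for 72 h with cancer-associated fibroblasts (CAF) made to overexpress PAI-1, which blocks plasminogen activators. In the CAF libraries (n = 3), Panc-1 had been kept for 72 h with CAF without that overexpression, under the column name CAF-NC, whose NC is not explained in the sources used here. Panc-1 is labelled wild type in both groups and was grown in DMEM with serum. The labels give neither the origin of the CAF nor how Panc-1 and CAF were taken apart before RNA extraction, and their extraction text names another line and treatment.

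An integrin binds matrix proteins outside the cell, and the pairing of subunits sets which ones. Talin and kindlin bind the tail of the beta subunit, vinculin reinforces the link of talin to actin, and kinases such as FAK and SRC signal from paxillin and the scaffold p130Cas. Proteins with LIM domains, zyxin among them, gather where actin cables pull on the plaque.

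Library totals ranged from 13628508 to 16006880 counts, and 3 counts corresponded to 0.187 to 0.220 counts scaled to library size (CPM). PAI-1 replicate 2 stood apart, with 3.78% of its counts from mitochondrial genes, against 5.12% and 4.76% in the other PAI-1 libraries and 5.53% to 5.92% in the CAF libraries. Of 6 epithelial markers, KRT8 and KRT18, keratins of simple epithelia, were the most abundant. They were at 1139.7 ± 75.3 and 751 ± 33.4 CPM in PAI-1 libraries and 1015 ± 31.6 and 581 ± 22.8 CPM in CAF libraries (SD, n = 3 each). KRT7 and EPCAM, named after their values were seen, were low, with means of 12.5 and 8.10 CPM in PAI-1 libraries. In CAF libraries their means were 8.16 and 7.06 CPM. KRT8, KRT18, KRT19 and KRT7 were higher in PAI-1 libraries (edgeR adjusted p = 0.0186, 1.50e-06, 1.25e-05 and 5.98e-04). EPCAM did not pass (adjusted p = 0.379). CDH1, the epithelial cadherin, also named after its value was seen, was at 1.01 ± 0.330 CPM in PAI-1 libraries and 1.67 ± 0.212 CPM in CAF libraries (adjusted p = 0.115). None of 6 squamous markers reached 1 CPM in any library, TP63 and KRT13 among them. Of 15 fibroblast markers, 13 did not reach 1 CPM in any of the libraries. DCN, PDGFRA, FAP and POSTN had 3, 0, 0 and 0 counts over the PAI-1 libraries and 0, 1, 1 and 3 over the CAF libraries. FBLN1 and COL3A1 carried the fibroblast list. Scaled to library size alone, unlike the levels of single genes above, its sum was 111 to 119 CPM in PAI-1 libraries and 118 to 130.2 CPM in CAF libraries.

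Of the 36 members tested, 16 rose and 3 fell with CAF overexpressing PAI-1, where a gene is said to have risen or fallen when its edgeR adjusted p was under 0.05 over all genes tested. That is 52.8% of the members, against 32.2% of all genes tested, with 17.2% higher and 15.0% lower. Well expressed genes were called more often, and where the mean CPM was 10 or more 41.6% of genes were called, against 18 of 30 members (60.0%). Members were chosen with earlier results of these data known, so these shares are description and not a test. The median log2 fold change was 0.17 over the members and 0.00 over all genes. Groups did not overlap for 15 members that were higher and 9 that were lower, together 24 of 36, against backgrounds of 22.3% and 21.1%, together 43.4%. The balance of directions moved with the scaling, for members and for all genes. With library size alone 11 members rose and 10 fell, so that 52.4% of their calls were rises, against 84.2% with TMM scaling. Over all genes tested that setting gave 1839 rises and 3182 falls, against 2571 and 2239 with TMM scaling. The median log2 fold change was then 0.11 over the members and -0.07 over all genes. A rise of over 1.5-fold was called for 5 of the 36 members tested, ZYX, FERMT2, VCL, BCAR1 and ITGA3, and for 3.88% of all genes. No member fell as far, where 4.53% of all genes did. These are bulk libraries, in which fewer cells of a type and less RNA per cell cannot be told apart.

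**Figure D1:**
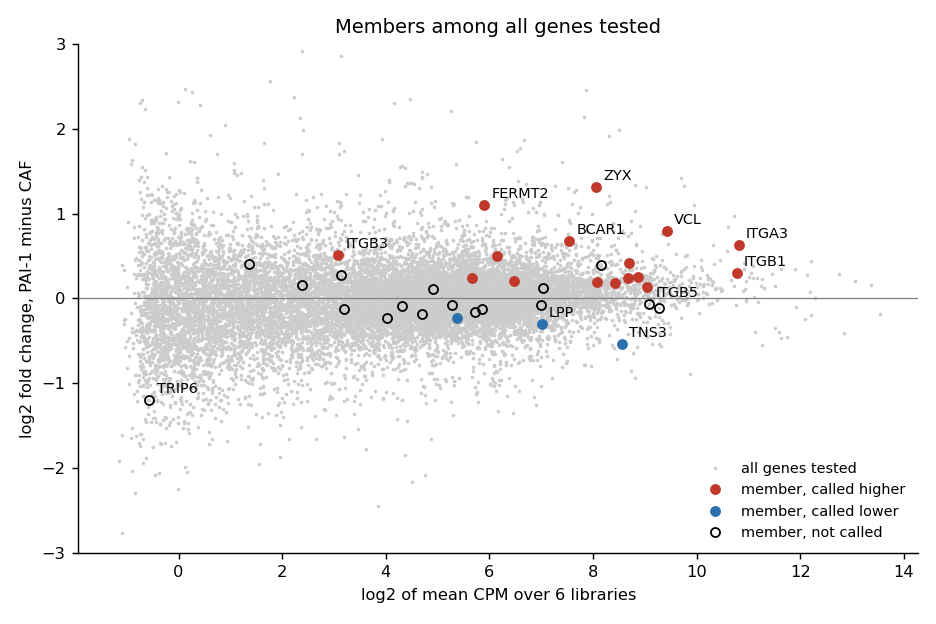
Members among all genes tested. Each point is a gene, with the log2 of its mean CPM over the 6 libraries on the x axis and its log2 fold change, PAI-1 minus CAF, on the y axis; filled red and blue points are members called higher (16) and lower (3), open circles are members not called (17), and 6 genes with changes beyond 3 lie outside the plot. ZYX and FERMT2 lie highest among the members, and ITGA3 and ITGB1 farthest right.

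The starts of the 4 genes with the largest rises and of TNS3, the member with the largest fall, are shown because these genes carry the contrast within the plaque. They are RefSeq windows on GRCh38.p14 of 300 bases, 250 before and 50 from the annotated start, read 5′ to 3′ on the strand of the gene. ITGA3, close behind BCAR1 in its rise, is named only. Windows were found for 34 of the 42 members. Capitals mark matches, on either strand, to motifs of factors known for acting on genes of growth and the actin cytoskeleton: AP-1 (TGACTCA or TGAGTCA), EGR (GCGTGGGCG or GCGGGGGCG, which can overlap SP1 sites), TEAD (GGAATG) and the CArG box of serum response factor. A match is a run of letters and not a measured binding site.
ZYX, chr7:143381095-143381394, plus strand: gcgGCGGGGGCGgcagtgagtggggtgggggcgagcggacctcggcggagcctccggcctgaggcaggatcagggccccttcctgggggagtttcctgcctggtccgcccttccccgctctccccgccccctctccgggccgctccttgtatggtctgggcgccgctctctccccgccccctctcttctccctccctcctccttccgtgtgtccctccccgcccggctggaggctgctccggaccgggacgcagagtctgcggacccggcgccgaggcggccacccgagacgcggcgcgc
FERMT2, chr14:52951001-52951300, minus strand: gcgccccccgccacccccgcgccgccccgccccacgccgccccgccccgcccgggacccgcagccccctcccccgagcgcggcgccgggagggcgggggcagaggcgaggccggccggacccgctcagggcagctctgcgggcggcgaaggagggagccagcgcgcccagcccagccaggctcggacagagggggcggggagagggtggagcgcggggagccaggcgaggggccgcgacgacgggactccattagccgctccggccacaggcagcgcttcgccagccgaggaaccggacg
VCL, chr10:73997866-73998165, plus strand: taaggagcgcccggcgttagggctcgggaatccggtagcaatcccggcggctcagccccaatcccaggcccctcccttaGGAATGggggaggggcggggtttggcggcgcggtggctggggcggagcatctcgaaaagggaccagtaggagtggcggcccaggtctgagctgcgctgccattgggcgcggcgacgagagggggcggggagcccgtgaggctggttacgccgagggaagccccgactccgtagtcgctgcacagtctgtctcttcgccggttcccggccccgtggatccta
BCAR1, chr16:75267958-75268257, minus strand: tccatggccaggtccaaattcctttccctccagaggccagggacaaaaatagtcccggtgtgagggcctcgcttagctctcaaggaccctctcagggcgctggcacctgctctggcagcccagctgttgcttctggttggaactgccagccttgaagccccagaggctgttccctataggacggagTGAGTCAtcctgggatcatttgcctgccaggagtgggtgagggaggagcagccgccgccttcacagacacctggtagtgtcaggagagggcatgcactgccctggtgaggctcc
TNS3, chr7:47582537-47582836, minus strand: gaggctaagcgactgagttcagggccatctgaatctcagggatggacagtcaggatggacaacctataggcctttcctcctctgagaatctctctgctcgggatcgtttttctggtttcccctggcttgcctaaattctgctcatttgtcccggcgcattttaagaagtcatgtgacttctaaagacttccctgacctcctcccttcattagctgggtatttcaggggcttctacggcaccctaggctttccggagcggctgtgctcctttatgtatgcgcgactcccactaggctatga
The ZYX window holds an EGR match at positions 4 to 12, counted from 1 at its 5′ end, the VCL window a TEAD match at 80 to 85 and the BCAR1 window an AP-1 match at 187 to 193. The FERMT2 and TNS3 windows hold no match to these letters. AP-1 letters were in 4 of 34 member windows (11.8%) and in 4.92% of all 27305 windows. EGR letters were in 6 (17.6%) against 5.7%, TEAD letters in 5 (14.7%) against 14%, and the CArG box in 2 (5.88%), ITGB1BP1 and ITGB6, against 1.29%. Among integrin subunits other than ITGB6, ITGA5 held both an AP-1 match, at 245 to 251, and a TEAD match, at 169 to 174, ITGB1 a TEAD match at 69 to 74, ITGA10 a TEAD match at 160 to 165 and ITGB8 an EGR match at 20 to 28.

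Alpha subunits came mostly from 5 genes. Levels between genes are compared as CPM per kb of exon, from GENCODE release 29. ITGA3, which pairs with ITGB1 and binds laminins, was highest at 223 CPM per kb in PAI-1 libraries and 144 in CAF libraries. ITGA6, the other main laminin receptor subunit, followed at 77.6 and 65.3 CPM per kb, and ITGAV, the partner of several beta subunits in binding vitronectin and fibronectin, at 66.9 and 60.7. ITGA5, the fibronectin receptor subunit, had 48.1 CPM per kb in PAI-1 libraries and 42.4 in CAF libraries, and ITGA2, a collagen receptor subunit, had 41.2 and 31.3. The order of these 5 was the same in both groups. The single libraries of ITGA5 (41.9 to 53.1 CPM per kb) and ITGA2 (32.4 to 47.6) overlapped within the PAI-1 group, and those of ITGA6 (64.6 to 65.9) and ITGAV (58.3 to 64.6) met within the CAF group. The remaining alpha subunits were at or below 2.62 CPM per kb in either group mean.

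ITGA3 had 2239.7, 2187 and 2120.1 CPM in PAI-1 libraries, against 1447, 1403 and 1374 CPM in CAF libraries. Every PAI-1 library lay above every CAF library, by more than the spread within a group. The log2 fold change was 0.63 (SE 0.0527, edgeR adjusted p = 1.44e-11), or 1.55-fold. ITGA3 (ENSG00000005884) spans chr17:50055968-50090481 on the plus strand of GRCh38. ITGA6 had 509, 518 and 493 CPM in PAI-1 libraries and 422, 430.2 and 427 CPM in CAF libraries, which again did not overlap. It rose by 0.25 on the log2 scale (SE 0.0514, edgeR adjusted p = 2.61e-04).

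The rises of ITGAV and ITGA5 were smaller and less firm. ITGAV had 545, 555 and 547 CPM in PAI-1 libraries and 479, 487 and 530.1 CPM in CAF libraries (log2 fold change 0.14, SE 0.0533, edgeR adjusted p = 0.0432). The CAF libraries differed more among themselves than the PAI-1 libraries did. Without PAI-1 replicate 1 or 3, or CAF replicate 1 or 2, the adjusted p was 0.0627, 0.097, 0.182 and 0.159. RLE scaling gave 0.0505, a test of genes with a mean CPM of 10 or more 0.0727, and library size alone a log2 fold change of 0.07 (adjusted p = 0.311). ITGA5 had 403, 318 and 373 CPM in PAI-1 libraries and 321, 317 and 324 CPM in CAF libraries, so PAI-1 replicate 2 lay within the CAF range. Its log2 fold change was 0.18 (SE 0.0629, edgeR adjusted p = 0.0244), and was 0.10 without PAI-1 replicate 1 (adjusted p = 0.212). Leaving out any library other than PAI-1 replicate 2 ended the call for ITGA5, with adjusted p between 0.0589 and 0.212, as did library size alone (0.12, adjusted p = 0.148).

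ITGA2 showed the same split among PAI-1 libraries and was not called. It had 376, 257 and 344 CPM in PAI-1 libraries and 247, 241 and 256 CPM in CAF libraries. The groups did not overlap, but PAI-1 replicate 2 lay only just above the CAF libraries. The log2 fold change was 0.39 (SE 0.147, edgeR adjusted p = 0.106). Without PAI-1 replicate 2 it was 0.53 (adjusted p = 3.92e-17), and without PAI-1 replicate 1 it was 0.27 (adjusted p = 0.0482). It was also called higher with the replicate number as a block (0.38, adjusted p = 0.0159), with limma-voom (0.38, 0.00111) and with no filter on low counts (0.40, 3.03e-06). PAI-1 replicate 2 is also the library with the lowest mitochondrial share, and the part of that in these values was not tested.

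**Figure D2:**
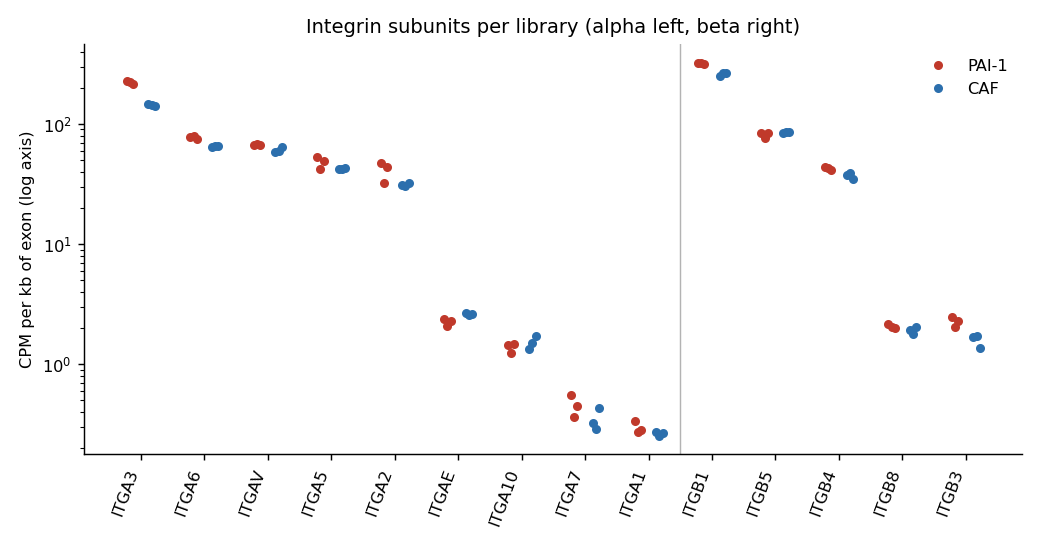
Integrin subunits in each library. The y axis is CPM per kb of exon on a log axis, each point is a library (red, PAI-1; blue, CAF), and genes run from high to low within alpha (left) and beta (right) subunits. ITGA3 and ITGB1 stand above the other subunits, with a gap between ITGA2 and ITGAE and between ITGB4 and the lowest beta subunits.

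ITGA1 and ITGA2 are neighbours on chromosome 5 (52787896 to 52959210 and 52989326 to 53094779, plus strand) and encode collagen receptor subunits. ITGA1 had only 5.51 ± 0.686 CPM in PAI-1 libraries and 4.93 ± 0.189 CPM in CAF libraries and was not called (log2 fold change 0.16, edgeR adjusted p = 0.523). Some of its exon bases (475) are shared with PELO, which had 4042 counts against 471 for ITGA1 over the 6 libraries, so its value is uncertain. ITGA10, another collagen receptor subunit, had 8.76 ± 0.801 CPM in PAI-1 libraries and 9.59 ± 1.28 CPM in CAF libraries (-0.12, adjusted p = 0.557). ITGA7, a laminin receptor subunit of muscle, had 2.90 ± 0.600 CPM in PAI-1 libraries and 2.21 ± 0.470 CPM in CAF libraries (0.40, adjusted p = 0.254). ITGAE, known from lymphocytes that bind E-cadherin, had 15.7, 13.9 and 15.1 CPM in PAI-1 libraries and 17.8, 17.1 and 17.5 CPM in CAF libraries. Its groups did not overlap, yet the log2 fold change of -0.23 missed the threshold (adjusted p = 0.111) except with library size alone (-0.29, adjusted p = 0.0351), and 427 of its exon bases are shared with HASPIN on the other strand. ITGA11, a collagen receptor subunit of fibroblasts, had 4 counts over the PAI-1 libraries and 2 over the CAF libraries, and ITGA4 had 5 and 3. Both were left out of the test.

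Among beta subunits, ITGB1, the common partner of most alpha subunits, made up most of the RNA. It had 1939, 1949.7 and 1895 CPM in PAI-1 libraries and 1516, 1593 and 1593 CPM in CAF libraries, with no overlap. The log2 fold change was 0.30 (SE 0.0522, edgeR adjusted p = 2.81e-05), a rise of smaller size than that of ITGA3. ITGB1 (ENSG00000150093) spans chr10:32900319-33005792 on the minus strand. ITGB5, a partner of ITGAV, had 543, 493 and 544 CPM in PAI-1 libraries and 546, 557 and 555 CPM in CAF libraries. It was not called with TMM scaling (log2 fold change -0.07, 95% interval -0.18 to 0.04, adjusted p = 0.344) and was called lower with library size alone (-0.14, adjusted p = 0.0441).

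ITGB4, which pairs with ITGA6 in hemidesmosomes, had 294, 290.0 and 281 CPM in PAI-1 libraries and 255, 265 and 236 CPM in CAF libraries. It rose by 0.19 on the log2 scale (SE 0.0548, edgeR adjusted p = 0.0062), a call lost without CAF replicate 3 (0.15, adjusted p = 0.0881) and with library size alone (adjusted p = 0.0722). ITGB3, the partner of ITGAV in the classical vitronectin receptor, was a minor transcript. It had 10.9, 9.01 and 10.1 CPM in PAI-1 libraries and 7.40, 7.50 and 6.04 CPM in CAF libraries, with no overlap, and rose 1.43-fold (log2 fold change 0.51, SE 0.147, edgeR adjusted p = 0.00667). ITGB8, a partner of ITGAV that binds latent TGF-beta, had 32.8, 30.6 and 30.1 CPM in PAI-1 libraries and 29.4, 26.9 and 30.8 CPM in CAF libraries and was not called (0.10, adjusted p = 0.381). ITGB6, the epithelial partner of ITGAV, had 11 counts over the PAI-1 libraries and 7 over the CAF libraries and was not tested.

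ITGA3 and ITGB1 made up more of the subunit RNA in every PAI-1 library than in any CAF library. The summed alpha subunits came to 478, 448 and 456 CPM per kb in PAI-1 libraries and 349, 345 and 350.4 in CAF libraries, and the summed beta subunits to 455, 448 and 446 in PAI-1 libraries and 378, 394 and 389 in CAF libraries. With library size alone the group means of the alpha sum were 449 and 356 CPM per kb, and those of the beta sum 438 and 396. ITGA3 made up 47.8%, 49.8% and 47.5% of the alpha sum in PAI-1 libraries, against 42.3%, 41.5% and 40.0% in CAF libraries. ITGAV made up 14.5% ± 0.602 of it in PAI-1 libraries and 17.4% ± 0.882 in CAF libraries (SD, n = 3 each). Of the beta sum, ITGB1 made up 70.9%, 72.4% and 70.8% in PAI-1 libraries and 66.7%, 67.2% and 68.1% in CAF libraries, and ITGB5 18.2% ± 0.982 and 22.1% ± 0.231. ITGB4 had a share of 9.49% ± 0.144 in PAI-1 libraries and 9.63% ± 0.588 in CAF libraries. These shares do not depend on how libraries were scaled, and they describe RNA per length, not pairs of proteins. The shares were not tested.

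**Figure D3:**
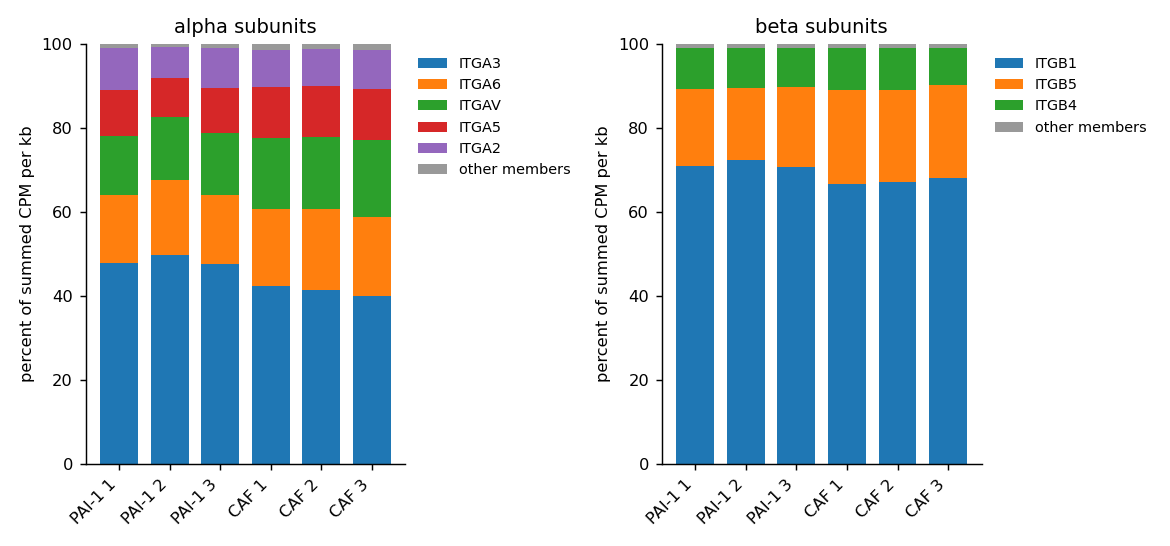
Shares of integrin subunit RNA. Each bar is a library, split by the percent of summed CPM per kb from each subunit, with alpha subunits left, beta subunits right and the low subunits together in grey. The ITGA3 and ITGB1 segments are taller in all 3 PAI-1 libraries than in any CAF library. The ITGA6, ITGAV, ITGA5 and ITGB5 segments are shorter.

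Proteins that link the integrin tail to actin were split. FERMT2 encodes kindlin-2, which binds the beta tail beside talin, and had 80.6, 75.5 and 87.4 CPM in PAI-1 libraries, against 36.0, 40.0 and 37.9 CPM in CAF libraries. The lowest PAI-1 library was far above the highest CAF library. It rose 2.14-fold (log2 fold change 1.10, SE 0.0727, edgeR adjusted p = 5.32e-14). VCL, encoding vinculin, had 923, 784 and 905 CPM in PAI-1 libraries and 506, 502 and 503 CPM in CAF libraries. It rose 1.73-fold (0.79, SE 0.0574, adjusted p = 5.30e-13), although PAI-1 replicate 2 lay below the other PAI-1 libraries. VCL shares 1109 exon bases with AP3M1 on the other strand, which had 12.5% as many counts.

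The talins, which vinculin and kindlin join in the plaque, were not called. TLN1 had 613, 569.8 and 603 CPM in PAI-1 libraries and 659.8, 644 and 629.8 CPM in CAF libraries. All PAI-1 libraries were lower, and the log2 fold change of -0.11 (95% interval -0.22 to -0.01, edgeR adjusted p = 0.0932) passed only in some settings: -0.18 with library size alone (adjusted p = 0.00701), -0.14 when only genes with a mean CPM of 10 or more were tested (0.0338) and -0.12 with the replicate number as a block (0.0437). TLN2, the less abundant talin, had 24.3 ± 2.79 CPM in PAI-1 libraries and 27.7 ± 0.653 CPM in CAF libraries (-0.19, adjusted p = 0.131) and was called lower with library size alone (-0.25, adjusted p = 0.0355).

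TNS3 encodes tensin-3, an adaptor that binds beta tails and actin. It had 325, 280.1 and 313 CPM in PAI-1 libraries, against 461, 429 and 448 CPM in CAF libraries, with no overlap. The log2 fold change was -0.54 (SE 0.0568, edgeR adjusted p = 2.49e-09), or 0.687-fold, and lay between -0.61 and -0.49 over the alternatives. KANK2, which binds talin at the rim of adhesions, had 124 ± 9.32 CPM in PAI-1 libraries and 131 ± 4.73 CPM in CAF libraries (-0.08, adjusted p = 0.319). ITGB1BP1, encoding the ITGB1 tail inhibitor ICAP, had 37.9 ± 2.99 CPM in PAI-1 libraries and 39.9 ± 1.84 CPM in CAF libraries (-0.07, adjusted p = 0.516), and 2209 of its exon bases are shared with ASAP2, so its value is uncertain. FERMT1, the kindlin of skin and gut epithelium, had 17 counts over the PAI-1 libraries and 22 over the CAF libraries, and TNS1 had 3 and 3.

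The complex of ILK, PINCH and parvin, which couples kindlin to actin, moved little. LIMS1 (PINCH) had 107, 85.6 and 92.6 CPM in PAI-1 libraries and 80.7, 82.6 and 84.6 CPM in CAF libraries and rose by 0.20 (SE 0.0694, edgeR adjusted p = 0.0223), while without PAI-1 replicate 1 it had 0.11 (adjusted p = 0.253). The parvins went opposite ways. PARVB had 50.8, 61.3 and 53.9 CPM in PAI-1 libraries and 44.1, 52.6 and 43.2 CPM in CAF libraries (0.24, SE 0.0816, adjusted p = 0.0201), and these ranges overlap. PARVA had 35.8, 40.1 and 38.7 CPM in PAI-1 libraries and 46.9, 42.6 and 44.4 CPM in CAF libraries (-0.23, SE 0.0767, adjusted p = 0.0217), with no overlap. Leaving out single libraries ended each of these calls: for LIMS1 also CAF replicate 1 or 2 (adjusted p = 0.0868 and 0.0675), for PARVB PAI-1 replicate 2 or CAF replicate 1 or 3 (0.113, 0.109 and 0.116), and for PARVA PAI-1 replicate 1 or 3 or CAF replicate 1 or 3 (0.0959, 0.0511, 0.11 and 0.0549). Library size alone also ended the calls of LIMS1 (0.14, adjusted p = 0.124) and PARVB (0.18, adjusted p = 0.0941). ILK itself was listed at 10.9, 9.81 and 8.34 CPM in PAI-1 libraries and 9.59, 6.87 and 7.55 CPM in CAF libraries (0.27, adjusted p = 0.182). Of its 3484 exon bases 2374 are shared with TAF10 on the other strand, so this level is uncertain.

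The zyxin family held the largest rise and a fall. ZYX, encoding zyxin, had 411, 353 and 377 CPM in PAI-1 libraries, against 154, 158 and 149 CPM in CAF libraries. It rose 2.48-fold (log2 fold change 1.31, SE 0.0580, edgeR adjusted p = 1.74e-18), and the alternatives gave 1.24 to 1.36. Per length it stood at 109 CPM per kb in PAI-1 libraries, level with CAV1, and at 44.0 in CAF libraries, where CAV1 had 91.9. ZYX (ENSG00000159840) spans chr7:143381080-143391111 on the plus strand. TES, encoding testin, a LIM protein that binds zyxin, had 89.3, 86.1 and 75.2 CPM in PAI-1 libraries and 58.2, 62.9 and 56.2 CPM in CAF libraries and rose 1.41-fold (0.50, SE 0.0709, adjusted p = 1.09e-06).

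LPP, a close paralog of zyxin, went the other way. It had 125, 101 and 119 CPM in PAI-1 libraries and 147, 132 and 147 CPM in CAF libraries, with no overlap, and fell to 0.810 of its CAF level (log2 fold change -0.30, SE 0.0679, edgeR adjusted p = 7.59e-04). TRIP6, the third zyxin paralog of the list, had 4, 5 and 9 counts in PAI-1 libraries and 12, 21 and 11 in CAF libraries. That is near the level of a few counts, and its log2 fold change of -1.20 (SE 0.491) was not called (adjusted p = 0.0557), though it was with library size alone (adjusted p = 0.0417).

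**Figure D4:**
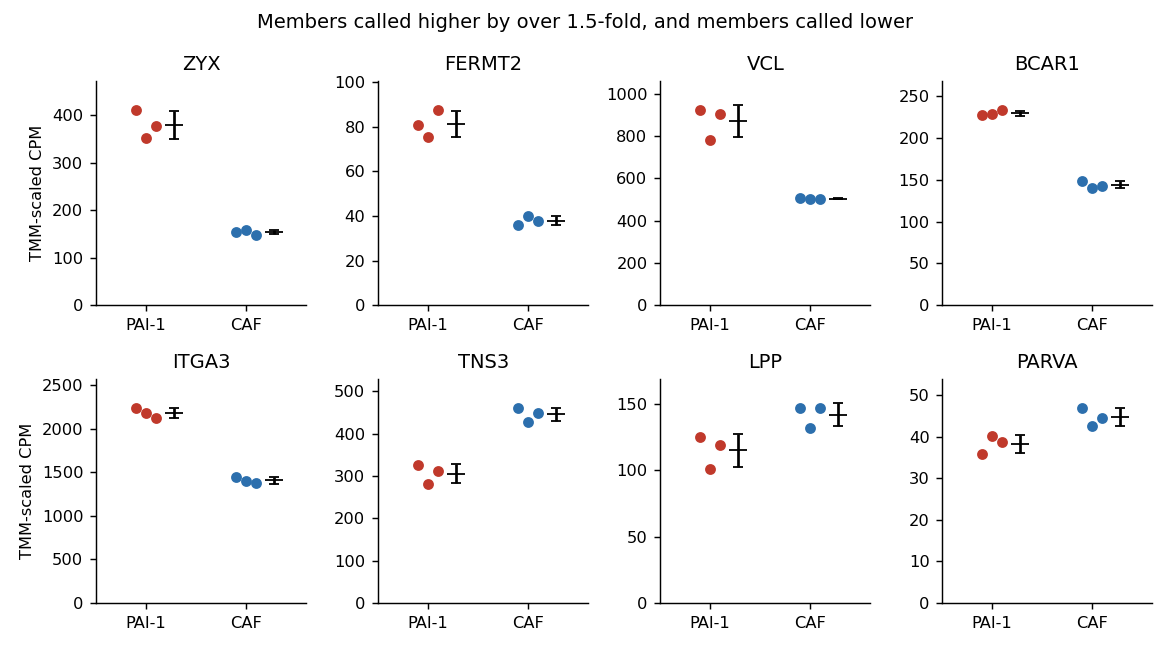
Members that rose by over 1.5-fold (ZYX, FERMT2, VCL, BCAR1, ITGA3) and members that fell (TNS3, LPP, PARVA). The y axis is TMM-scaled CPM from 0, points are libraries (PAI-1 left, CAF right), and black marks are the mean with the SD of 3 libraries. In each panel the groups do not overlap, and ZYX and FERMT2 differ most.

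Of 7 tested kinases, scaffolds and GTPase regulators, BCAR1, PXN and CAV1 rose and the other members were not called. That is 42.9% called, against 32.2% of all genes tested and 41.6% of those with a mean CPM of 10 or more. BCAR1, encoding p130Cas, a docking protein phosphorylated by SRC, had 227, 229 and 233 CPM in PAI-1 libraries and 149, 140.4 and 143 CPM in CAF libraries. Libraries of a group lay close together, and it rose 1.59-fold (log2 fold change 0.67, SE 0.0543, edgeR adjusted p = 7.22e-12). PXN, encoding paxillin, had 509, 441 and 480.0 CPM in PAI-1 libraries and 366, 351 and 356 CPM in CAF libraries and rose 1.33-fold (0.42, SE 0.0555, adjusted p = 3.28e-07). CAV1, encoding caveolin-1 of membrane caveolae, had 452, 439 and 439 CPM in PAI-1 libraries and 353, 389.9 and 383 CPM in CAF libraries and rose by 0.24 (SE 0.0535, adjusted p = 6.29e-04).

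PTK2, encoding the focal adhesion kinase FAK, had 135, 128 and 146 CPM in PAI-1 libraries and 121, 132 and 122 CPM in CAF libraries. These ranges overlap, and the log2 fold change of 0.12 was not called (edgeR adjusted p = 0.125), except without PAI-1 replicate 2 (0.16, adjusted p = 0.0234). SRC had 19.3 ± 0.514 CPM in PAI-1 libraries and 20.5 ± 1.40 CPM in CAF libraries (-0.09, 95% interval -0.29 to 0.11, adjusted p = 0.535). NEDD9, a paralog of BCAR1, had only 9, 7 and 12 counts in PAI-1 libraries and 2, 2 and 4 in CAF libraries and was left out of the test. Without a filter its adjusted p was 0.0768. GIT1 and ARHGEF7 (beta-PIX), partners in control of RAC and ARF GTPases, had -0.16 and -0.13 and were not called (adjusted p = 0.0999 and 0.172). GIT1 was called lower without PAI-1 replicate 1 (-0.26, adjusted p = 0.00902), and with library size alone both were (0.0179 and 0.0321).

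**Figure D5:**
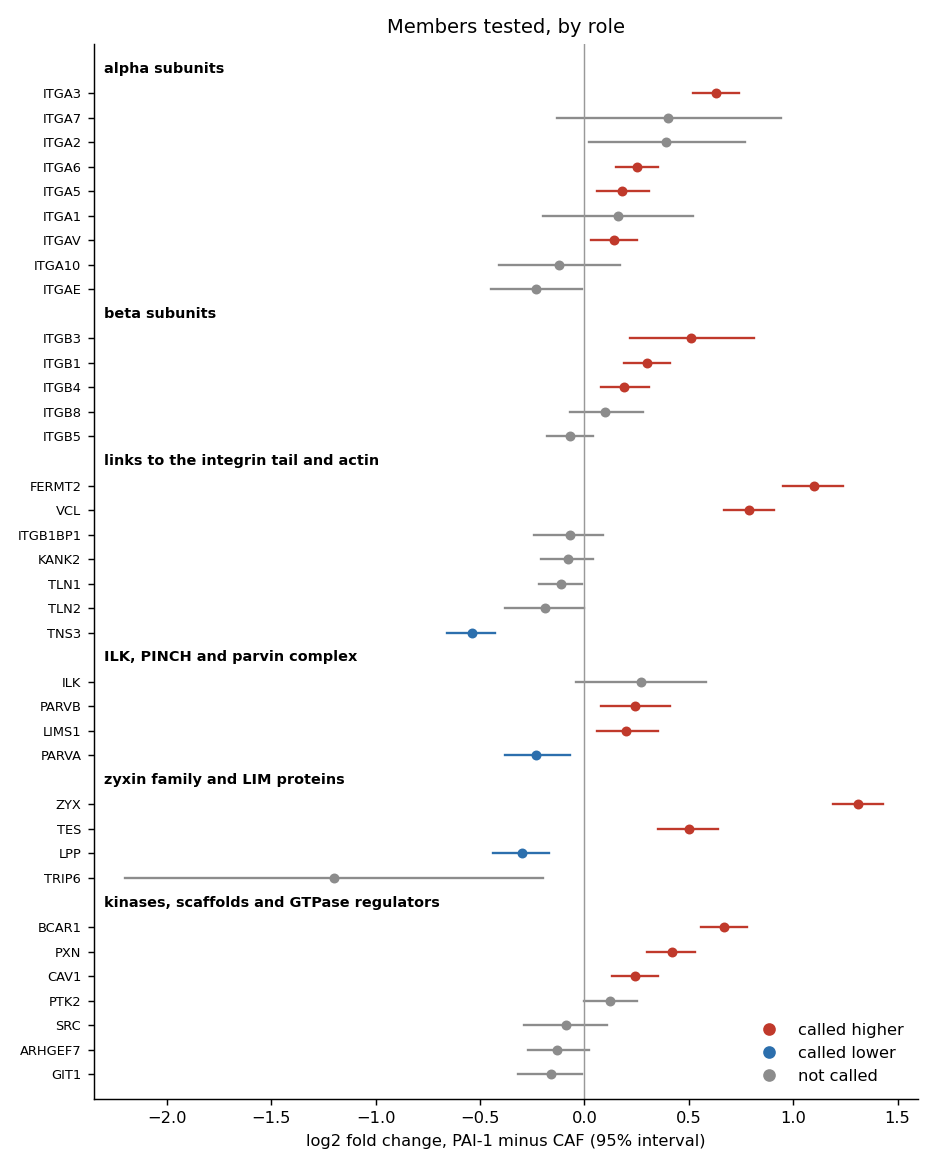
Log2 fold changes of the 36 members tested, by role. The x axis is the log2 fold change, PAI-1 minus CAF, with its 95% interval from the edgeR fit; red marks members called higher, blue members called lower and grey members not called. Rises lie in every role, while falls are TNS3, PARVA and LPP, and the wide interval of TRIP6 goes with its low counts.

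By role, 7 of 14 tested integrin subunits rose and none fell, with a median log2 fold change of 0.19, where 17.2% of all genes tested rose and 15.0% fell. Among the 22 other members tested 9 rose and 3 fell, with a median of 0.02. The rises thus lay over both kinds of member, and whether these shares differ was not tested. Summed over the 17 subunits, integrin RNA took 0.671%, 0.653% and 0.650% of the counts of the PAI-1 libraries, and 0.546%, 0.544% and 0.548% of those of the CAF libraries.

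Of 90 adhesion genes outside the list, 79 were tested, 30 rose and 9 fell (49.4% called, against 32.2% of all genes tested). Where the mean CPM was 10 or more, 41.6% of all genes were called, but the 79 genes include some below that mean. The median log2 fold change of the 79 genes was 0.13. With library size alone 26 of them rose and 18 fell, where 1839 of all genes rose and 3182 fell. These lists too were chosen with earlier results of these data known, so their shares, here and below, are description and not a test. Of 40 tested genes of other adhesion proteins 15 rose and 4 fell (47.5% called). RHOB, a small GTPase, had 136 ± 5.85 CPM in PAI-1 libraries and 60.4 ± 2.26 CPM in CAF libraries (log2 fold change 1.17, edgeR adjusted p = 1.96e-16), and PDLIM7, a LIM protein of actin cables, 243 ± 13.9 and 129 ± 6.33 CPM (0.92, adjusted p = 1.65e-14). PEAK1, a pseudokinase scaffold, and GIT2, the paralog of GIT1, fell, with -0.41 and -0.43 (adjusted p = 1.08e-04 and 0.00243). None of the 4 tested subunits outside the list was called by edgeR (0 at an unadjusted p under 0.05 too), and the leukocyte subunit ITGB2 had 10.2 ± 1.03 CPM in PAI-1 libraries and 11.4 ± 1.36 CPM in CAF libraries.

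Of 19 tested ligands of integrins 8 rose and 4 fell (63.2% called, against 32.2% of all genes tested). CTGF and THBS1, matricellular proteins that bind integrins, had the smallest p among rises, at 503 ± 2.69 and 114 ± 14.6 CPM in PAI-1 libraries, against 133 ± 7.97 and 36.5 ± 2.38 CPM in CAF libraries. FBN1 and COL6A1, a fibrillin and a chain of collagen VI, fell, with -0.84 and -0.42 (edgeR adjusted p = 0.00447 and 0.00846). Laminins are ligands of ITGA3 and ITGA6, and the laminin chains LAMB3 and LAMA3 are named here after their values were seen. LAMB3 rose to 34.0 ± 1.33 CPM in PAI-1 libraries, against 16.8 ± 0.840 CPM in CAF libraries (1.02, adjusted p = 1.04e-10). LAMA3 had 3.57 ± 0.652 CPM in PAI-1 libraries and 5.08 ± 1.21 CPM in CAF libraries and was not called (-0.50, adjusted p = 0.0692). VTN, the vitronectin gene, had 8 counts over the PAI-1 libraries and 10 over the CAF libraries, and FN1 had 3.56 ± 1.31 CPM in PAI-1 libraries and 4.33 ± 0.721 CPM in CAF libraries.

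Among 16 tested membrane and trafficking partners of integrins 7 rose and 1 fell, where 17.2% of all genes tested rose and 15.0% fell. SDC4, a syndecan that joins focal adhesions, had 617 ± 31.8 CPM in PAI-1 libraries and 343 ± 10.9 CPM in CAF libraries (0.85, edgeR adjusted p = 2.11e-14). SLC3A2, which binds beta tails and carries amino acid transporters, had 338 ± 12.4 CPM in PAI-1 libraries and 206 ± 0.378 CPM in CAF libraries (0.72, adjusted p = 7.98e-13). DAB2, an adaptor for integrin uptake, fell, at 6.70 ± 1.40 CPM in PAI-1 libraries, against 10.3 ± 2.07 CPM in CAF libraries (-0.60, adjusted p = 0.00505).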

How the data were processed

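Poly(A) RNA of 6 co-culture libraries was sequenced, 3 in each of 2 groups named by the sample titles. The authors deposited whole-number counts per gene, used as they are. BWA, Bowtie2, RSEM and hg19 are named in the submitters' processing notes, without roles, while all 58735 identifiers are those of GENCODE release 29 on GRCh38, so coordinates identify genes only. The sources used here give neither the rule for shared reads nor the use of strand. The test was that of edgeR 4.0.16, run under R 4.3.3 (filterByExpr with minimum count 10 and minimum total 15, TMM, robust glmQLFit, glmQLFTest), as PAI-1 minus CAF, with Benjamini-Hochberg adjustment over 14960 genes. Levels are TMM-scaled CPM, except for the sums of marker lists, which are scaled to library size alone. A standard error is the log2 fold change without shrinkage divided by the root of F. The fit was checked on simulated data.

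The alternatives were RLE scaling, library size alone, no filter, a mean of at least 10 CPM, DESeq2 1.42.0, voom of limma 3.58.1, a replicate block and each library left out. Members and lists were chosen with earlier results of these data known. All members were named, with the 2 smallest p per direction of each further list and the 2 most abundant markers; some single genes are not reported here. Replicates differed beyond sampling noise (chi-square per degree of freedom 2.58 to 9.51). The pairs with PAI-1 replicate 2 gave 9.51 and 6.63, the other PAI-1 pair 3.39 and the CAF pairs 2.58 to 3.72. The titles call the libraries biological replicates without saying whether they came from separate cultures, so the p-values reflect only how these libraries vary, which may be technical. Marker lists of leukocytes (led by ITGB2 and CD14) and endothelium (led by KDR and VWF; KDR rose, edgeR adjusted p = 0.0172) summed to 16.3 to 18.8 and 1.45 to 2.56 CPM in PAI-1 libraries and 17.8 to 21.7 and 0.881 to 1.47 CPM in CAF libraries, and the epithelial list to 1982 to 2271 and 1826 to 1918 CPM.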

Additional observations from a re-analysis of the deposited data

How the results depend on the processing

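Over the 13 alternatives, 11 of the 16 members that rose and 2 of the 3 that fell kept their call wherever they were tested, and no call turned in direction. With library size alone 10 members fell in place of 3, and 18 other adhesion genes in place of 9. Over all genes tested 3182 fell in place of 2239 and 1839 rose in place of 2571. The median of all genes moved to -0.07, and the cause was not tested. Over omissions of a single library 12 to 17 members rose and 2 to 3 fell, and DESeq2 gave 16 and 3. Over all genes tested, the replicate numbers showed no strong pairing of libraries. Deviations from the group mean correlated at 0.002, 0.012 and 0.006 between libraries of the same number, and 2 of the 3 PAI-1 libraries correlated best with their own number. Whether the numbers pair libraries for part of the genes was not tested. With the replicate number as a block, 17 members rose and 4 fell, and over all genes 2708 and 2361. Members of a few counts (ITGA4, ITGA11, ITGB6, FERMT1, TNS1, NEDD9) cannot show moderate changes at this depth.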
